A study of Homo sapiens with 6 samples.

Results

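The 5 genes described here encode the enzymes of proline synthesis and of the ornithine branch that joins it, namely ALDH18A1, PYCR1, PYCR3, OAT and ALDH4A1. They were chosen by name as a metabolic pathway, all 5 were found among the 57820 genes of the count table, and all 5 were among the 17225 genes tested. The measurements are gene counts from total RNA of HEK293 cells, a cell line of human embryonic kidney origin. The 3 minocycline libraries came from cells given 100 µM minocycline, a tetracycline antibiotic, for 12 h without heat shock. The 3 control libraries came from cells given the vehicle dimethyl sulfoxide (DMSO) over the same 12 h. Replicates 1, 2 and 3 of both groups carry batch labels 1, 2 and 3, and the series describes them as biological replicates. Each library held 17303180 to 17835756 counts.

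Proline is made in mitochondria from glutamate. ALDH18A1, also called P5CS or pyrroline-5-carboxylate synthase, phosphorylates and reduces glutamate to a semialdehyde that closes to the ring of pyrroline carboxylate. OAT, ornithine aminotransferase, reaches the same intermediate from ornithine and can run in either direction. The reductases PYCR1, in mitochondria, and PYCR3, in the cytosol, turn pyrroline carboxylate into proline, which consumes NADH or NADPH. In the opposite direction PRODH oxidises proline back to pyrroline carboxylate, and ALDH4A1 oxidises that to glutamate. ALDH18A1 and PYCR1 are known to be switched on by ATF4, which drives gene expression when amino acids run short.

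None of the 5 genes passed the threshold, a Benjamini-Hochberg adjusted p under 0.05 in edgeR's quasi-likelihood test, which 0.0522% of all genes tested passed (9 genes). DESeq2 and limma-voom also called 0 of the 5. PYCR1 had the largest fitted change of the 5, with a log2 fold change of 0.67, and PYCR3 stood at -0.38. ALDH18A1, OAT and ALDH4A1 lay between -0.13 and 0.08. At an unadjusted p under 0.05, 1 of the 5 was higher (PYCR1, where 2.72% of all genes were) and 1 was lower (PYCR3, where 1.97% of all genes were). The median log2 fold change of the 5 was -0.12, beside 0.01 over all genes tested.

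The cells carried transcripts of all 6 analysed markers of the HEK293 line, from PAX2, with a mean of 4.13 CPM (counts per 1000000 counts, TMM-scaled) in minocycline libraries and 4.16 CPM in control libraries, to VIM, with 723 and 692 CPM. Of 16 analysed markers of other cell types, 12 had at most 13 counts in any library, COL1A1 averaged 63.7 CPM with minocycline and 77.2 CPM in controls, and LUM, LRP2 and CUBN averaged 2.25 to 3.02 CPM in either group. The lists held 8 markers of the line and 17 of other cells. NEFL and LHX1 of the line and PECAM1 of other cells were not matched in the count table and could not be assessed. Genes of cytosolic ribosomal proteins took 8.33%, 7.34% and 10.8% of the counts in minocycline replicates 1, 2 and 3, against 7.40%, 11.02% and 12.2% in control replicates 1, 2 and 3. Control replicate 1 thus stood apart from the other control libraries in this share, within the span of the minocycline libraries. The first principal component of all genes, with 61.0% of the variance, gave the minocycline libraries scores of -10.2, -26.4 and 1.45 in replicate order. On it control replicate 1 scored -28.3, while control replicates 2 and 3 scored 25.2 and 38.2. For each named gene whose call turns on control replicate 1, the value without it is given as well.

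The stretches of 250 bases upstream of the transcription start of ALDH18A1 and OAT are shown because these 2 enzymes make pyrroline carboxylate and were the most abundant of the 5 transcripts. They were taken from RefSeq promoters on GRCh38.p14, run 5′ to 3′ on the minus strand, and have capitals at any match to CACGTG, the E-box bound by MYC and related factors.
ALDH18A1, chr10:95656712-95656961: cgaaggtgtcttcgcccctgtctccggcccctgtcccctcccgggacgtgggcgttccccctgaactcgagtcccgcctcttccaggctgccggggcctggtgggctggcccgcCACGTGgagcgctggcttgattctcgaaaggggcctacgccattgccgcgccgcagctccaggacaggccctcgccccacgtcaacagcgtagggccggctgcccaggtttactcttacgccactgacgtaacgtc
OAT, chr10:124418924-124419173: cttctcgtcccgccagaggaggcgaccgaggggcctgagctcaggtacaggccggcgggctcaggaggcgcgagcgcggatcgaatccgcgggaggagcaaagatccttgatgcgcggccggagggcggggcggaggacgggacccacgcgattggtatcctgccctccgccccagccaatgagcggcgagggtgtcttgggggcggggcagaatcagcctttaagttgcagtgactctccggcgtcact
The E-box in ALDH18A1 spans the 136th to the 131st base upstream, and 6.34% of the 35116 promoter windows of the table hold such a match. Neither sequence holds TGATGNAA on either strand, the core letters of the composite element read by ATF4 and its C/EBP partners, which 3.14% of the windows hold. Neither of the 2 windows listed for ALDH4A1 holds either motif. The table matched 3 of the 5 genes, and PYCR1 and PYCR3 were not matched. These are matches of letters within a fixed window, and no binding was measured.

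ALDH18A1 (ENSG00000059573.4, protein-coding) lies on chromosome 10 from 97365698 to 97416468 of GRCh37, on the minus strand. It had 141, 138 and 117 CPM in minocycline replicates 1, 2 and 3, against 140, 113 and 122 CPM in control replicates 1, 2 and 3, after scaling with TMM factors. The groups overlapped along nearly their whole range. Mean levels were 132 ± 13.0 CPM with minocycline and 125 ± 13.5 CPM in controls (SD, n = 3 each). The log2 fold change was 0.08 ± 0.14 (SE), with a 95% interval of -0.23 to 0.38 and an adjusted p of 0.899 in edgeR's test. In such bulk RNA, fewer cells expressing a gene and less of its RNA per cell cannot be told apart.

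OAT (ENSG00000065154.7, protein-coding) lies on the same chromosome from 126085872 to 126107545, on the same strand. Its level was 170, 194 and 186 CPM in minocycline replicates 1, 2 and 3, against 199, 191 and 211 CPM in control replicates 1, 2 and 3. Minocycline replicate 2 lay above control replicate 2, so the groups overlapped. The means were 183 ± 12.5 CPM with minocycline and 200.2 ± 10.2 CPM in controls (SD, n = 3 each). The log2 fold change of -0.13 ± 0.12 had a 95% interval of -0.40 to 0.14 (edgeR adjusted p = 0.833). ALDH18A1 and OAT were therefore both measured with intervals that span no change. The log2 ratio of ALDH18A1 to OAT within a library, which does not depend on scaling between libraries, was -0.26, -0.50 and -0.67 with minocycline and -0.51, -0.75 and -0.78 in controls. These ranges overlapped, and the difference of the means was 0.21 (two-sided exact permutation test, p = 0.20, and 0.40 adjusted over 2 ratios), where 3 against 3 libraries cannot reach a p below 0.1.

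**Figure D1:**
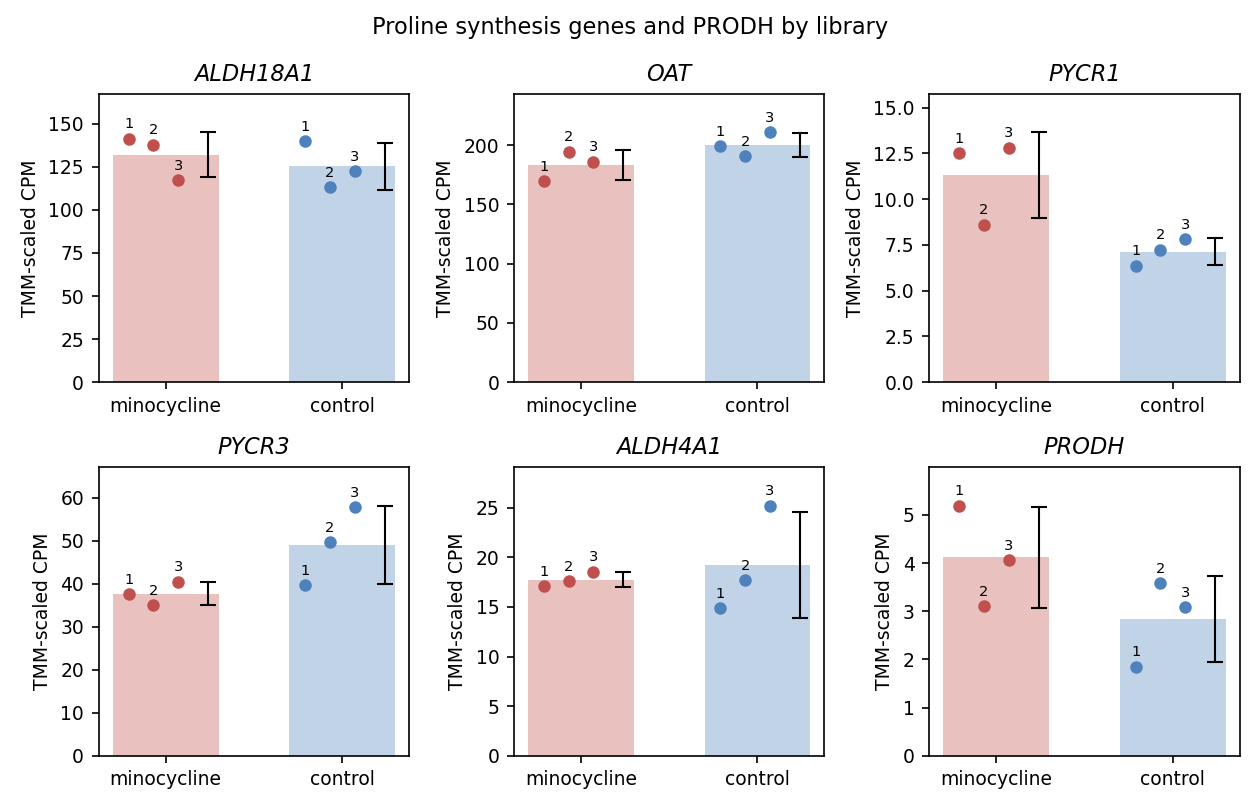
TMM-scaled CPM (vertical axis, linear, from 0) of the 5 proline synthesis genes and of PRODH, the first enzyme of proline breakdown, in minocycline libraries (left, red) and control libraries (right, blue). Points are libraries with their replicate number, bars are means and error bars are SD over n = 3 libraries, and PYCR1 is the panel in which the 3 minocycline libraries, at 8.59 to 12.8 CPM, lie above the 3 control libraries, at 6.36 to 7.80 CPM.

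PYCR1, the mitochondrial reductase, was the least abundant member. Its gene (ENSG00000183010.12) occupies 79890260 to 79900288 of chromosome 17, minus strand. It had 229, 158 and 224 counts in minocycline replicates 1, 2 and 3, against 117, 121 and 129 counts in control replicates 1, 2 and 3. Scaled levels were 12.5, 8.59 and 12.8 CPM in the minocycline libraries and 6.36, 7.22 and 7.80 CPM in the control libraries. The groups did not overlap, as was the case for 5.74% of all genes in this direction, and minocycline replicate 2 lay closest to the controls. Means were 11.3 ± 2.35 CPM with minocycline and 7.13 ± 0.725 CPM in controls (SD, n = 3 each). PYCR1 had a log2 fold change of 0.67 ± 0.20, with a 95% interval of 0.21 to 1.12 and an unadjusted p of 0.00923, which ranked 148th of 17225 genes. Adjusted over all genes, edgeR's p was 0.820, so PYCR1 was not called. The log2 difference within batches 1, 2 and 3 was 0.98, 0.25 and 0.72. The call was not made in any of 15 alternatives. The smallest adjusted p was 0.0539, without control replicate 1, where the log2 change was 0.59 and 17.9% of all genes passed. The next was 0.0615, with 1 surrogate variable, where the log2 change was 0.81 and 0.528% of all genes passed.

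Other genes overlap PYCR1, and how reads in shared stretches were counted is not given in the sources used here. MYADML2, on the same strand, shares 408 of the 2886 exon bases of PYCR1 and had 1 to 8 counts per library. A noncoding RNA gene on the opposite strand shares 450 exon bases and had 0 counts in every library. If shared reads were left out, the level of PYCR1 is understated in both groups.

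PYCR3, the cytosolic reductase, had the lowest log2 fold change of the 5. Its gene (ENSG00000104524.9) occupies 144685380 to 144691943 of chromosome 8, minus strand, and its exons share 15 bases with those of TIGD5 on the other strand. Its level was 37.6, 35.0 and 40.5 CPM in minocycline replicates 1, 2 and 3, against 39.6, 49.7 and 57.9 CPM in control replicates 1, 2 and 3. The groups overlapped, because control replicate 1 lay within the minocycline range. Means were 37.7 ± 2.72 CPM with minocycline and 49.05 ± 9.13 CPM in controls (SD, n = 3 each). For PYCR3 the log2 fold change was -0.38 ± 0.16, with a 95% interval of -0.74 to -0.01, an unadjusted p of 0.0432 and an edgeR adjusted p of 0.820. Within batches 1, 2 and 3 the log2 difference was -0.07, -0.50 and -0.52. Without control replicate 1, PYCR3 passed (log2 change -0.51, adjusted p = 0.0156), in a setting in which 17.9% of all genes passed. It passed in no other alternative. The order of the control libraries in PYCR3 was also that of their ribosomal protein share given above, whose part in the result was not tested. With 1 surrogate variable in the fit, where 0.528% of all genes passed, the log2 change of PYCR3 was -0.20 (adjusted p = 0.622).

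The 2 reductases were also compared within each library. The log2 ratio of PYCR1 counts to PYCR3 counts was -1.59, -2.03 and -1.66 in the minocycline libraries, in replicate order, and -2.64, -2.78 and -2.89 in the control libraries. All 3 minocycline libraries lay above all 3 control libraries, and here control replicate 1 lay with the other controls. Mean ratios were -1.76 ± 0.24 with minocycline and -2.77 ± 0.13 in controls (SD, n = 3 each), a difference of 1.01. This ratio does not depend on scaling between libraries. It was looked at after the values of both genes were known, and no test is given for it.

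On the breakdown side, ALDH4A1 (ENSG00000159423.12) occupies 19197924 to 19229218 of chromosome 1, minus strand. It had 17.1, 17.6 and 18.6 CPM in minocycline replicates 1, 2 and 3, against 14.9, 17.7 and 25.2 CPM in control replicates 1, 2 and 3. The minocycline libraries lay close together inside the range of the controls, whose highest and lowest values were replicates 3 and 1. Its log2 fold change was -0.12 ± 0.20, with a 95% interval of -0.57 to 0.34 (edgeR adjusted p = 0.899), and it was -0.27 without control replicate 1, 0.12 without control replicate 3 and 0.10 with 1 surrogate variable. RP13-279N23.2, a protein-coding gene on the same strand, shares 1517 of the 3632 exon bases of ALDH4A1 and had at most 1 count in any library. The log2 ratio of ALDH18A1 to ALDH4A1 was 3.05, 2.97 and 2.66 with minocycline and 3.23, 2.68 and 2.28 in controls. The ranges overlapped (difference of means 0.16, two-sided exact permutation p = 0.70, and 0.70 adjusted over 2 ratios), and without control replicate 3 the difference was -0.07.

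**Figure D2:**
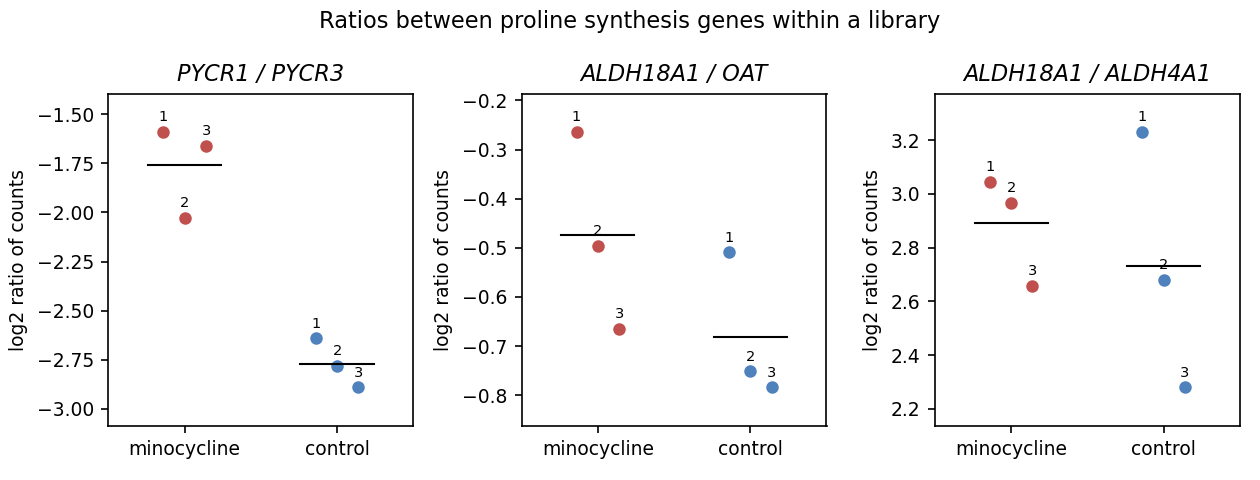
Log2 ratio of counts within a library (vertical axis) of PYCR1 to PYCR3, ALDH18A1 to OAT and ALDH18A1 to ALDH4A1 in minocycline libraries (left, red) and control libraries (right, blue). Points are libraries with their replicate number and lines are means over n = 3. The groups lie apart for PYCR1 to PYCR3, at -2.03 to -1.59 with minocycline against -2.89 to -2.64 in controls, and overlap for the other pairs. The pair of PYCR1 and PYCR3 was picked after the values of both genes were known, and it was not tested.

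PRODH, which carries out the step before ALDH4A1 in proline breakdown, was scarce, with 95, 57 and 71 counts in minocycline replicates 1, 2 and 3, against 34, 60 and 51 counts in control replicates 1, 2 and 3. Minocycline replicate 2 lay below control replicate 2, so the groups overlapped. Its log2 fold change was 0.54 ± 0.30 (edgeR adjusted p = 0.820), with a 95% interval of -0.14 to 1.22. The value depended on single libraries, being 0.30 without control replicate 1 and 0.34 without minocycline replicate 1, and it was 0.86 with 1 surrogate variable, with no call in any of these. DGCR6, on the opposite strand, shares 675 exon bases with PRODH and had 545 to 1012 counts per library, so the level of PRODH is uncertain as long as the use of strand in the counting is unknown.

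Per kilobase of exon the 5 genes kept the same order of mean level in both groups. OAT came first, at 54.1 ± 3.70 CPM per kb with minocycline and 59.1 ± 3.00 CPM per kb in controls (SD, n = 3 each). ALDH18A1 had 35.1 ± 3.45 and 33.3 ± 3.59 CPM per kb in the minocycline and control libraries. The cytosolic reductase PYCR3 had 9.55 ± 0.690 CPM per kb with minocycline and 12.4 ± 2.31 CPM per kb in controls. ALDH4A1 had 4.89 ± 0.206 and 5.30 ± 1.47 CPM per kb, and PYCR1 had 3.92 ± 0.815 and 2.47 ± 0.251 CPM per kb, in the minocycline and control libraries. Within each group the libraries of neighbouring genes in this order did not overlap. Among all genes tested, the control level per kb of OAT exceeded that of 95.6% of genes, that of ALDH18A1 91.1%, that of PYCR3 76.6%, that of ALDH4A1 57.5% and that of PYCR1 40.3%. Exon length covers every annotated exon of a gene, and the cells may use shorter transcripts.

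**Figure D3:**
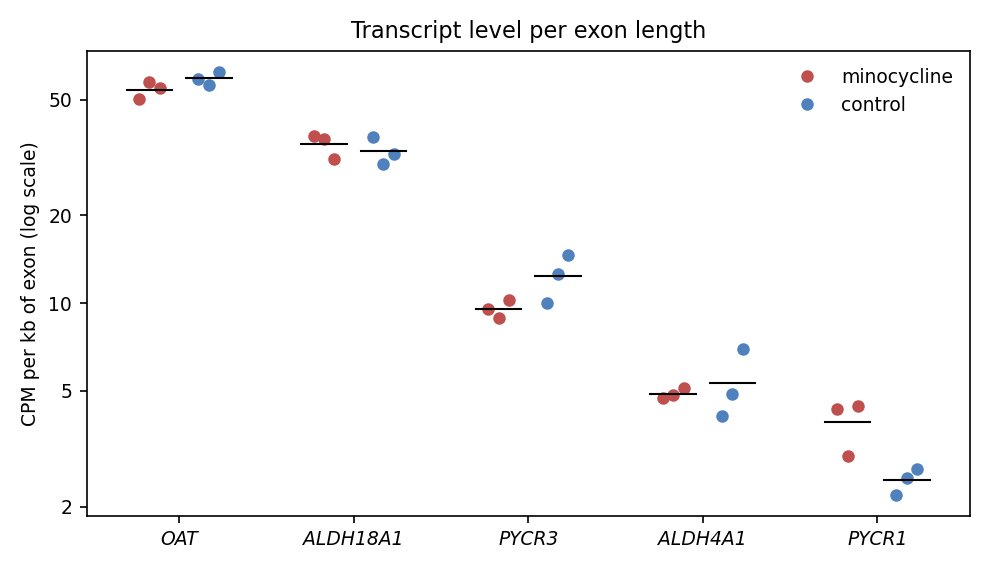
CPM per kb of exon (vertical axis, log scale) of OAT, ALDH18A1, PYCR3, ALDH4A1 and PYCR1 in minocycline libraries (left of each pair, red) and control libraries (right, blue). Points are libraries and lines are means over n = 3, and the order of the genes is the same in both groups, with PYCR1 lowest at 3.92 CPM per kb with minocycline and 2.47 CPM per kb in controls.

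The wider pathway was read from 9 lists that hold 70 further genes, of which 60 were tested and 10 had too few counts. None of the 60 passed in edgeR's test. At an unadjusted p under 0.05, 6 were higher, as were 2.72% of all genes tested, and 0 were lower, as were 1.97% of all genes. Their median log2 fold change was 0.06, beside 0.01 over all genes. DESeq2 called 1 of them, SLC1A4, where it called 0.238% of all genes, and limma-voom called 0. Without control replicate 1, where 17.9% of all genes passed, 16 of the 60 passed, 13 of them higher and 3 lower. Among the genes with too few counts were PRODH2, the hydroxyproline dehydrogenase, with at most 1 count in a library, OTC of the urea cycle with at most 3, and the proline carriers SLC6A7 and SLC6A20 with at most 3 and 9.

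The carriers that bring proline and other small neutral amino acids across the plasma membrane or out of lysosomes had the highest median of the lists. Of the 4 tested, 3 had a positive log2 fold change, as had 8975 of all 17225 genes, and the median was 0.59. Without control replicate 1, where 17.9% of all genes passed, 3 of the 4 passed, all higher. SLC1A4, which carries alanine, serine, cysteine and also proline, had 62.7, 60.2 and 58.4 CPM in minocycline replicates 1, 2 and 3, against 34.2, 29.0 and 26.5 CPM in control replicates 1, 2 and 3. All 3 minocycline libraries lay well above the controls, and for 5.74% of all genes the groups lay apart in this direction. SLC1A4 had a log2 fold change of 1.01 ± 0.14, and the edgeR adjusted p of 0.0523 lay just above the threshold, while SLC1A4 passed in 5 of 15 alternatives, among them that without control replicate 1 (1.12, adjusted p = 0.00015). SLC38A2, a sodium-coupled neutral amino acid carrier that takes up proline, had 218, 269 and 240 CPM in minocycline replicates 1, 2 and 3, against 224, 92.6 and 75.3 CPM in control replicates 1, 2 and 3. Control replicate 1 lay within the minocycline range, and the other control libraries lay far below it. SLC38A2 had a log2 fold change of 0.89 ± 0.35 (edgeR adjusted p = 0.820), and it was 1.53 without control replicate 1 (adjusted p = 1.02e-05).

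The list for use of proline covers the charging of transfer RNA and the prolyl hydroxylase family of collagen. All 9 of its genes had a positive log2 fold change (8 with RLE scaling), as had 8975 of all 17225 genes. Their median was 0.45, and none passed. Without control replicate 1, where 17.9% of all genes passed, 4 of the 9 passed. They were EPRS1, P4HA2, P3H2 and P4HA1, the last of which is named here after its value was seen. P4HA1 had overlapping groups and a log2 fold change of 0.53 ± 0.25 (edgeR adjusted p = 0.820). Its value without control replicate 1 was 0.90 (edgeR adjusted p = 0.00263). EPRS1, which charges transfer RNA with glutamate and with proline in the cytosol, had 192, 264 and 227 CPM in minocycline replicates 1, 2 and 3, against 179, 118 and 110.1 CPM in control replicates 1, 2 and 3. The groups did not overlap, as for 5.74% of all genes in this direction, and control replicate 1 again lay closest to the minocycline libraries. EPRS1 had a log2 fold change of 0.75 ± 0.20 (edgeR adjusted p = 0.820), and of 1.00 without control replicate 1 (adjusted p = 0.000741). PARS2, the mitochondrial prolyl-tRNA synthetase, had a log2 fold change of 0.00 ± 0.22 and was singled out after its value was seen. The prolyl hydroxylases of collagen P4HA2 and P3H2 had log2 fold changes of 0.48 ± 0.20 and 0.45 ± 0.18 (edgeR adjusted p = 0.820 for both). Without control replicate 1, P4HA2 stood at 0.75 (edgeR adjusted p = 0.00449) and P3H2 at 0.62 (adjusted p = 0.0133). Among 7 tested peptidases that release proline from peptides or act beside it, PRCP, a lysosomal carboxypeptidase, stood at 0.31 ± 0.12 (edgeR adjusted p = 0.820), and the median was -0.02. PRCP stood at 0.37 without control replicate 1 (edgeR adjusted p = 0.0429), where 17.9% of all genes passed. In that setting 2 of the 7 peptidases passed higher, PRCP among them, and 1 passed lower.

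The medians of the other lists of several genes ran from -0.13 to 0.20, while single genes ranged more widely. The 9 collagen chains ran from -0.28 to 0.60 and the 4 breakdown genes from -0.38 to 0.54. Without control replicate 1, where 17.9% of all genes passed, 3 of the 9 collagen chains passed, all higher. In that setting 1 of the 9 glutamate supply genes passed higher and 2 of the 11 polyamine genes passed lower. The median log2 fold change was 0.07 over 9 genes of glutamate supply, -0.05 over 9 genes of ornithine, arginine and urea metabolism, -0.10 over 11 genes of polyamine synthesis, -0.13 over 4 genes of proline and hydroxyproline breakdown and 0.20 over 9 collagen chains. Among the 11 polyamine genes 8 had a negative value and 3 a positive one, and they ran from -0.30 to 0.05. Under plain library size scaling, which moved all genes by a median of 0.07, 6 were negative and 5 positive, and the medians of the ornithine and peptidase lists turned to 0.03 and 0.06. NADK2, the mitochondrial kinase that makes NADP for proline synthesis, had a log2 fold change of 0.31 ± 0.15 (edgeR adjusted p = 0.820). It is the single gene of its list, and it was singled out after its value was seen.

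**Figure D4:**
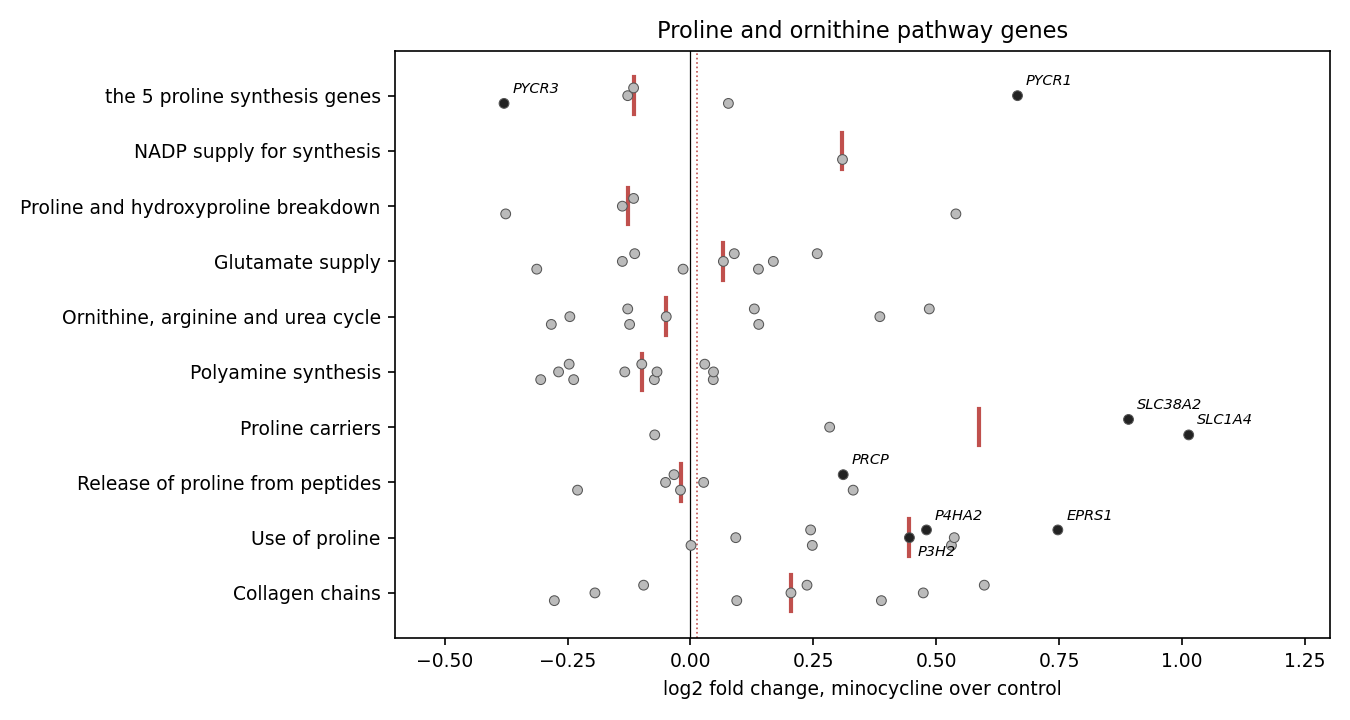
Log2 fold change of minocycline over control (horizontal axis) for each tested gene of the 5 proline synthesis genes and the 9 pathway lists (rows). Each point is a gene, dark where the unadjusted p was under 0.05 and then named, red bars are list medians and the dotted line is the median of all genes at 0.01. PYCR1, the carriers SLC38A2 and SLC1A4 and EPRS1 lie farthest to the right, and PYCR3 is the named gene left of 0.

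How alike the 5 genes were over the 6 libraries was described by the root mean square distance between their centred log2(CPM + 1) values, where 0 means the same profile. Among the 5 genes the closest pair was PYCR3 and ALDH4A1 at 0.17, then ALDH18A1 and OAT at 0.18, and the farthest was PYCR1 and PYCR3 at 0.49. Of 11556 named genes with at least 5 CPM on average, those closest to PYCR1 were PCYOX1L (0.11), XBP1 (0.11) and CEBPB (0.13), and the median distance of all was 0.40. Closest to PYCR3 were TUSC2 (0.02), PRPF31 (0.03) and TSR3 (0.03). ALDH18A1 was closest to KLF11, SART3 and DNMBP (0.02 each), OAT to LAP3, ARL1 and ZNF207 (0.03 each), and ALDH4A1 to ADCK1, EXOSC7 and GADD45G (0.05 each). The 3 closest genes lay farther from PYCR1, which had the lowest counts of the 5, than from any of the other 4.

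**Figure D5:**
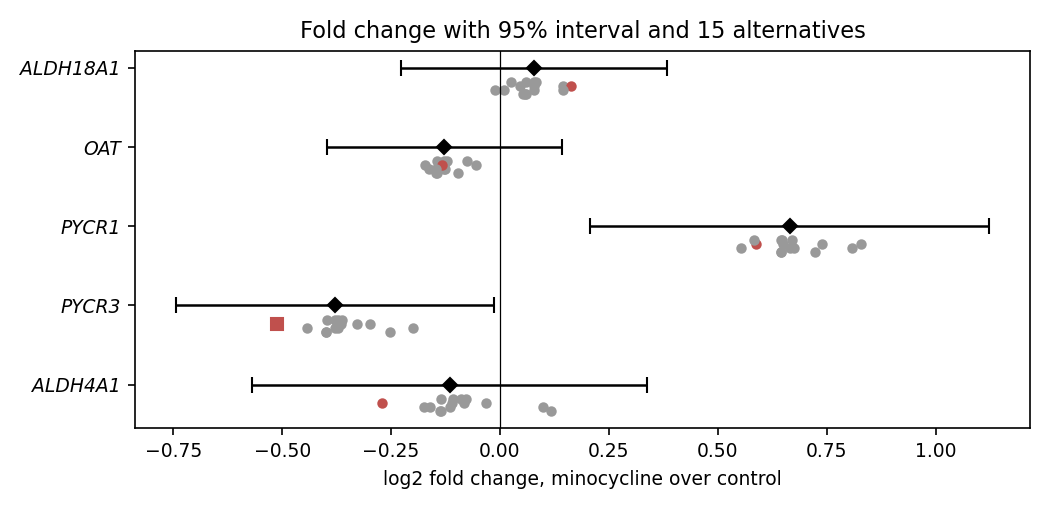
Log2 fold change of minocycline over control (horizontal axis) for the 5 proline synthesis genes. Diamonds are the reported values with their 95% interval, small circles are 15 alternative settings, red marks the setting without control replicate 1 and the square is the single call, PYCR3 at -0.51 in that setting, while PYCR1 lies between 0.55 and 0.83 throughout.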

How the data were processed

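RNA was measured in 6 libraries of HEK293 cells. Per the labels' protocols, total RNA was column-purified with DNase treatment, and NEBNext Ultra II libraries were sequenced as paired ends. The authors deposited whole-number counts per gene without normalization. Per the submitters' processing notes the build was hg19. Aligner, counter, annotation, RNA selection and strandedness are not given in the sources used here. Symbols came from a table of gene names (55538 identifiers matched) and positions and exon lengths from a GENCODE annotation on GRCh37.

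Genes were filtered with filterByExpr, scaled with TMM and tested with edgeR 4.0.16 (glmQLFit, glmQLFTest, defaults, R 4.3.3), treatment being the only term, with Benjamini-Hochberg adjustment over all genes. Levels (CPM) use TMM-scaled library sizes. The SE is the fold change divided by the square root of F. On simulated counts for 17225 genes with 200 changed, the test found 10.9% of genes set to 1.5-fold, 57.3% at 2-fold and 87.1% at 4-fold, and 8.33% of calls were false. Each gene was drawn separately, so shifts shared by many genes of a library were not simulated. The rates may therefore not hold for these libraries. Within groups, pairs of libraries had chi-square values of 5.80 to 63.6 per degree of freedom, so no pair differed by counting noise alone.

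The genes and lists were chosen with earlier results of these data known. Named are the 5 genes, PRODH, pathway genes past the threshold or with an unadjusted p under 0.05, and the 3 genes most like each member; others are single examples. A further gene and the comparisons that need it are not reported here. The replicate number is also the batch label, so same-numbered libraries were taken as paired in an alternative fit. The correlation of their deviations from the group means was -0.11, -0.42 and 0.35 for numbers 1, 2 and 3, while minocycline replicate 2 and control replicate 1 gave 0.62. Alternatives were DESeq2 1.42.0, limma-voom (limma 3.58.1), the newer quasi-likelihood method of edgeR, scaling by RLE or by plain library size, no filter, a minimum of 10 counts per library, the replicate block, 1 surrogate variable (sva 3.50.0) and each library left out.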

Additional observations from a re-analysis of the deposited data

How the results depend on the processing

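In 15 alternatives to the fit the number of the 5 genes past the threshold stayed at 0, with 1 exception, and leaving out 1 library each gave 0 to 1. PYCR1 stayed positive (0.55 to 0.83) and PYCR3 and OAT negative in all 15. ALDH18A1 was at -0.0123 with 1 surrogate variable, and ALDH4A1 at 0.10 with 1 surrogate variable; leaving out 1 library each, ALDH4A1 ran from -0.27 to 0.12, ALDH18A1 from 0.01 to 0.16, PYCR3 from -0.51 to -0.25, PYCR1 from 0.55 to 0.83 and OAT from -0.17 to -0.08. The log2 ratio of ALDH18A1 to ALDH4A1 ran from -0.0655 (without control replicate 3) to 0.41 with 1 library left out. The cause was not tested in any of these. Pathway genes past the threshold numbered 0 in the fit as reported. They numbered 1 with the newer quasi-likelihood method and 1 with DESeq2 (SLC1A4 in both), where 0.0755% and 0.238% of all genes passed. With no filter 3 of 70 tested passed (SLC1A4, SLC38A2 and EPRS1), beside 0.28% of all genes. With 1 surrogate variable 4 of 60 passed (these 3 and ASS1), beside 0.528% of all genes. Leaving out 1 library each gave 0 to 16. The 16 (13 higher, 3 lower, of 60 tested) came without control replicate 1, where 17.9% of all genes passed. With the replicate number as a block, 0 of the 5 genes and 0 pathway genes passed; PYCR1 had a log2 change of 0.65 (adjusted p = 0.858) and PYCR3 -0.37, and the ratio of ALDH18A1 to OAT had an exact sign-flip p of 0.25, the smallest 3 pairs allow. The block changed no call among the 5 genes and the pathway genes. Over all genes tested 13 passed with the block, against 9 in the fit as reported. PYCR1 rests on 117 to 229 counts per library, and its interval is wider than that of ALDH18A1 or OAT. What makes it wider was not tested.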
